A study of Mus musculus with 4 samples.

Results

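*Bcor* and its partners in the PRC1.1 complex were taken as a fixed list of 10 genes, *Bcor*, *Bcorl1*, *Pcgf1*, *Kdm2b*, *Rybp*, *Yaf2*, *Ring1*, *Rnf2*, *Skp1a* and *Usp7*, chosen for their place in the complex by a rule that uses no measured value, though with earlier results of these data known. Each was looked up by its exact symbol in a table of 12067 genes, and 9 of the 10 were found. *Pcgf1* is not analysed here. The measurements were Quant-seq gene counts from myeloid progenitors, a method that sequences each messenger RNA close to its 3′ end.

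There were 4 libraries, 2 of each genotype. The BcorΔE9-10 libraries carried the genotype label scl-Cre-ERT +; Bcorfl/y, and the BcorWT libraries the label Bcorfl/y. Both therefore had the same loxP-flanked *Bcor* allele on the single X chromosome of a male, and differed in the Cre transgene. That transgene is a tamoxifen-inducible Cre recombinase driven by stem cell regulatory sequences of *Scl* (*Tal1*), so the exons are removed in haematopoietic stem cells and the loss is inherited by their progeny. According to the methods, control littermates also received tamoxifen, mice were 3 to 6 months old at that time, and recipients were sub-lethally irradiated female *Ptprca* mice, which keep some blood cells of their own. The design text deposited with the series names whole bone marrow as the transplanted material and an interval of 20 weeks before sorting, while the methods also describe transplants of sorted cells. The labels describe the cells measured as donor-derived CD45.2+ Lin- cKIT+ Sca-1- (KL) cells. Neither source used here states how many animals made up a library, so the p-values below measure only the spread between these 4 libraries.

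Polycomb repressive complex 1 attaches ubiquitin to a lysine of histone H2A, a mark of silenced genes, and exists in several forms that share a RING-type ubiquitin ligase and differ in the Pcgf protein bound to it. In the PRC1.1 form, Pcgf1 binds Bcor or Bcorl1, and this pair joins Kdm2b, whose zinc finger recognises unmethylated CpG-rich DNA, to the catalytic subunits Ring1 or Rnf2. Bcor was first described as a co-repressor of Bcl6, and its gene is mutated in human myeloid leukaemia. Loss of its C-terminal end, which holds the PUFD domain that binds Pcgf1, separates it from the complex. Whether the messenger RNAs of the remaining subunits differed when *Bcor* had lost exons 9 and 10 was therefore the question put to these libraries.

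The deleted stretch is shown first, because it decides what a 3′ count can say about *Bcor* itself. *Bcor* (ENSMUSG00000040363) lies on the minus strand at chrX:12036740-12160355 of GRCm38 (mm10). In the GENCODE M21 transcript Bcor-204, which has 15 exons and 1759 codons, exon 9 is at chrX:12047423-12047748 and exon 10 at chrX:12046856-12047113, both wholly coding. Exon 10 is printed 5′ to 3′ on the transcribed strand as read from GRCm38, with the site of the 20-base primer that the study used for the floxed region in capitals.
exon 10: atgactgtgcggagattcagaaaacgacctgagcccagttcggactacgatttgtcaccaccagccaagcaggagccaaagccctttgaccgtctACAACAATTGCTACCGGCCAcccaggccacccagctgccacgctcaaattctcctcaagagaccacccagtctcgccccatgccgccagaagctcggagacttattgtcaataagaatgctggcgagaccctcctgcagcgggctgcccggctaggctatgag
The primer site covers bases 96 to 115 of this exon. The primer is labelled as an exon 9 primer in the study, and the same bases are exon 9 in transcript models of 14 exons.

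Exons 9 and 10 hold 326 and 258 bases. Their sum of 584 bases leaves a remainder of 2 when divided by 3, so joining exon 8 to exon 11 changes the reading frame. The join below gives the last 40 bases of exon 8 and the first 50 of exon 11, with the stop codon that comes into frame in capitals.
join of exon 8 and exon 11: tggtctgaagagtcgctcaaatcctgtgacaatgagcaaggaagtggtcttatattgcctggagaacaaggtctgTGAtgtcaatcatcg
The open reading frame then ends after 1297 codons, 73.7% of the length of the intact frame and 462 codons shorter. The last of these codons, read over the 35 bases of exon 11 before the stop, are out of frame. With exons 9 and 10 of the 14-exon model Bcor-203 removed instead, 425 bases would be deleted, the remainder would again be 2 and 1379 codons would be read. In Bcor-204 the deleted stretch ends 1726 bases before the 3′ end of the transcript. The new stop codon lies 510 bases upstream of the last exon junction, and the final exon and polyadenylation site are left in place.

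**Figure D1:**
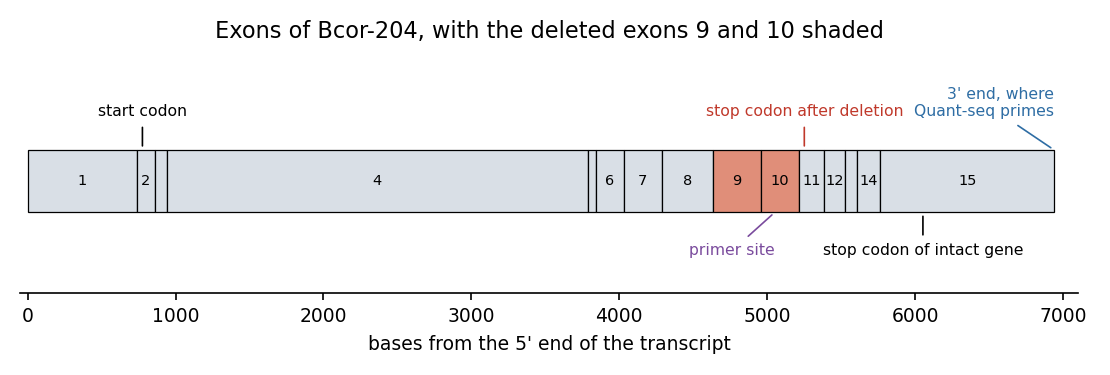
Exons of the *Bcor* transcript Bcor-204 drawn to scale, with position in bases from the 5′ end on the x axis, exons 9 and 10 shaded, and the start codon, the primer site, both stop codons and the 3′ end marked. The shaded stretch, at transcript positions 4632 to 5215, lies inside the transcript, upstream of the 3′ end at position 6941 from which Quant-seq primes.

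The map of the *Bcor* transcript shows that a message without exons 9 and 10 keeps the end from which it is counted. *Bcor* counts therefore report how much *Bcor* message was present and do not check which allele it came from.

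The libraries held between 3825290 and 6253101 counts, and 3 counts in a library corresponded to between 0.489 and 0.876 CPM (counts scaled to a common library total, with TMM factors that correct for library composition). The 2 BcorWT libraries had a Pearson correlation of 0.893 across genes, the lowest of the 6 pairs of libraries, and the 2 BcorΔE9-10 libraries had 0.947, the highest. A single transcript, *Gm42418*, took 16.3% and 14.3% of the counts in BcorΔE9-10 replicates 1 and 2. In BcorWT replicates 1 and 2 it took 27.9% and 1.43%, the highest and lowest shares. All 11 markers of KL cells were measured, *Kit* at 52.1 and 61.9 CPM in BcorΔE9-10 and 53.7 and 29.4 CPM in BcorWT. *Ly6a*, which encodes Sca-1 and should be absent after the sort, was at 0 to 3.80 CPM. Of the lineage markers, 0 of 5 for T cells and 1 of 5 for B cells were measured, while all 6 for mature neutrophils were, with a summed level of 62855 and 154031 CPM in BcorΔE9-10 replicates 1 and 2 and 93720 and 141096 CPM in BcorWT replicates 1 and 2. Other marker lists differed in level between the genotypes, with 0 of their genes at an adjusted p under 0.05 in edgeR with all 4 libraries. Over all genes, 16.8% were higher in both BcorΔE9-10 libraries than in both BcorWT libraries, and 17.1% were lower in both. An unadjusted p under 0.05 in edgeR was reached by 4.42% of all genes. All 4 measured of 6 late erythroid markers were higher in both BcorΔE9-10 libraries. Their summed level was 73.0 and 69.8 CPM against 19.3 and 45.9 CPM in BcorWT. The erythroid factor *Klf1* of the KL list was also higher in both, with 24 and 17 counts against 1 and 4. *Gata1* of that list overlapped between the genotypes, with 22 and 10 counts against 5 and 22. Of the 11 KL markers, 4 had a fitted log2 fold change above 0. All 4 markers of eosinophils, basophils and mast cells were lower in both BcorΔE9-10 libraries. Their summed levels were 216 and 166 CPM against 395 and 428 CPM, and 3 of the 4 had an unadjusted p under 0.05 in edgeR. The 3 measured of 4 monocyte markers were also lower in both, at 461 and 522 CPM against 591 and 1428 CPM. DESeq2 called 1 of the 4 eosinophil, basophil and mast cell markers at an adjusted p under 0.05. The median log2 fold change of these 4 was -1.54 without BcorWT replicate 1 and -1.48 without BcorWT replicate 2. For the monocyte markers it was -1.32 and -0.28 in the same fits. The part of these differences in the values of the PRC1.1 genes was not tested. *Xist*, which only female cells transcribe in quantity, was at 2.40 and 3.91 CPM in BcorΔE9-10 and 18.7 and 19.0 CPM in BcorWT, against a summed level of 4 Y-linked genes of 103 and 103 CPM and 107 and 49.7 CPM. The adjusted p of *Xist* was 0.419 in edgeR and 0.0132 in DESeq2. In these sorted populations, fewer cells of a type and less RNA per cell cannot be told apart.

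Of the 9 genes measured, 0 differed between the genotypes in edgeR's quasi-likelihood test at an adjusted p under 0.05, and 0 at an unadjusted p under 0.05. Over all 12067 genes, the shares called at these limits were 0.0166% (2 genes) and 4.42% (533 genes). DESeq2 and limma-voom also called 0 of the 9 at either limit, with 43 and 4 genes called in all at an adjusted p under 0.05. The fitted log2 fold change of BcorΔE9-10 over BcorWT was above 0 for 9 of the 9, from 0.055 for *Kdm2b* to 0.57 for *Yaf2*, compared with 47.7% of all genes. The median was 0.25 for these genes and -0.027 for all genes. The values above 0 were found for all 9 with DESeq2's size factors, with total counts and without *Gm42418*, but for 8 of 9 when BcorΔE9-10 replicate 1, BcorΔE9-10 replicate 2 or BcorWT replicate 2 was left out.

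The scaffold proteins are the first group. *Bcor* was counted 104 times in BcorΔE9-10 replicate 1, 113 times in replicate 2, and 58 and 79 times in the BcorWT replicates. These counts corresponded to 19.2 CPM (95% exact Poisson interval for counting error 15.7 to 23.3) and 18.4 CPM (15.2 to 22.1) in BcorΔE9-10, and to 16.9 CPM (12.9 to 21.9) and 14.9 CPM (11.8 to 18.5) in BcorWT. Both BcorΔE9-10 values lay above both BcorWT values, but the counting intervals of all 4 libraries overlapped. The log2 fold change of 0.25 had a standard error of 0.36 and a 95% interval of -0.58 to 1.07 (adjusted p = 0.961, edgeR), which on the linear scale spans 0.670-fold to 2.10-fold. A loss of *Bcor* message to under 0.670 of the BcorWT level thus lay outside the interval, and smaller decreases or an increase of up to 2.10-fold did not. Without each library in turn the log2 fold change stayed between 0.15 and 0.34.

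*Bcorl1*, the X-linked paralogue that can occupy the same place in the complex, lies at chrX:48341358-48408049. It was at 59.7 and 51.5 CPM in BcorΔE9-10 replicates 1 and 2 and at 45.8 and 49.5 CPM in BcorWT, from 157 to 323 counts. Again the groups did not overlap, and the log2 fold change was 0.22 with a standard error of 0.31 (95% interval -0.49 to 0.93, adjusted p = 0.960, edgeR). It was 0.11 without BcorΔE9-10 replicate 1 and 0.33 without BcorΔE9-10 replicate 2. Within a library the 2 paralogues can be compared with no scaling between libraries. *Bcor* made up 24.4% and 26.3% of the summed *Bcor* and *Bcorl1* counts in BcorΔE9-10, and 27.0% and 23.1% in BcorWT. The *Bcor* share therefore overlapped between the genotypes, with a difference of 0.027 in the mean log2 ratio beside a pooled SD of 0.17 (n = 2 per genotype, two-sided exact permutation p = 1, where the smallest p possible is 0.333). *Xist* moved with the genotype, being lower in both BcorΔE9-10 libraries, and its part in the *Bcor* and *Bcorl1* counts was not tested.

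Kdm2b is the subunit that brings PRC1.1 to CpG islands, and Skp1 binds its F-box. *Kdm2b* (chr5:122870665-122989823) was at 65.4 and 53.0 CPM in BcorΔE9-10 and at 62.5 and 51.6 CPM in BcorWT. In each genotype replicate 1 was above replicate 2 by more than the means of the genotypes differed, so the spread within a genotype exceeded the difference between them (log2 fold change 0.055, standard error 0.32, 95% interval -0.68 to 0.79, adjusted p = 0.991, edgeR). Leaving out BcorΔE9-10 replicate 1 turned the direction, to -0.11, as did leaving out BcorWT replicate 2, to -0.079. The last 627 exon bases of *Kdm2b* are shared with *Rnf34* on the opposite strand, which had 132, 145, 59 and 104 counts in the same order of libraries, and whether the counting used strand is not given in the sources used here.

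*Skp1a* (chr11:52231995-52246858) encodes Skp1, which is also the adaptor of the SCF ubiquitin ligases and so is not particular to PRC1.1. Its level was 113 and 112 CPM in BcorΔE9-10 and 112 and 79.8 CPM in BcorWT. The other libraries all stood well above BcorWT replicate 2, and without that library the log2 fold change of 0.23 (standard error 0.32, adjusted p = 0.960, edgeR) became 0.0036. Without BcorWT replicate 1 it was 0.49.

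Rybp and Yaf2 are alternative subunits that bind the RING protein and raise its activity on histone H2A. *Rybp* (chr6:100228565-100287485) was counted 130 and 281 times in BcorΔE9-10 and 102 and 111 times in BcorWT, which gave 24.03 and 45.8 CPM and 29.8 and 20.9 CPM. Only BcorΔE9-10 replicate 2 stood above the others, and BcorΔE9-10 replicate 1 lay between the BcorWT values. The log2 fold change of 0.47 (standard error 0.41, 95% interval -0.48 to 1.42, adjusted p = 0.945, edgeR) was -0.068 without BcorΔE9-10 replicate 2 and 0.86 without BcorΔE9-10 replicate 1. *Rybp-ps*, a processed pseudogene with a row of its own, matches bases 211 to 891 of the *Rybp* transcript at 99.3% identity over 681 bases, and had 9 and 51 counts in BcorΔE9-10 and 13 and 3 in BcorWT. It too was highest in BcorΔE9-10 replicate 2, but the matching bases end 3612 bases before the 3′ end of *Rybp*.

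*Yaf2* (chr15:93284278-93336935) had the highest log2 fold change of the 9, at 0.57 (standard error 0.40, 95% interval -0.36 to 1.504, adjusted p = 0.945, edgeR). Its counts were 80 and 146 in BcorΔE9-10 and 43 and 71 in BcorWT, equal to 14.8 and 23.8 CPM and to 12.6 and 13.4 CPM. The genotypes did not overlap, yet BcorΔE9-10 replicate 1 lay close to both BcorWT libraries and BcorΔE9-10 replicate 2 far above, and without the latter the log2 fold change was 0.19. The same library thus held the highest level of both *Rybp* and *Yaf2*, and it also held the highest summed level of neutrophil markers. Its part in either value was not tested beyond leaving it out. *Rybp* took 61.9% and 65.8% of the counts of the pair in BcorΔE9-10 and 70.3% and 61.0% in BcorWT, an overlap again (difference in mean log2 ratio -0.12, pooled SD 0.32, n = 2 per genotype, exact permutation p = 1).

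The catalytic subunits Ring1 and Rnf2 (Ring1b) are the E3 ligases that place ubiquitin on H2A, and 1 of them is present in every PRC1 complex. *Rnf2* (chr1:151458004-151500955) was at 49.0 and 61.3 CPM in BcorΔE9-10 and at 49.9 and 43.5 CPM in BcorWT, with 171 to 376 counts. Its groups overlapped, and the log2 fold change was 0.24 (standard error 0.31, 95% interval -0.49 to 0.97, adjusted p = 0.956, edgeR), or 0.073 without BcorΔE9-10 replicate 2 and 0.39 without BcorΔE9-10 replicate 1. The final 158 exon bases of *Rnf2* are shared with *Trmt1l* on the opposite strand, which was counted 135, 263, 132 and 140 times. *Ring1* (chr17:34020792-34024680) was rare, with 13 and 19 counts in BcorΔE9-10 and 4 and 14 in BcorWT, or 2.40, 3.10, 1.17 and 2.63 CPM. Its log2 fold change of 0.49 had a standard error of 0.74 and a 95% interval from -1.23 to 2.20. This is 0.428-fold to 4.61-fold on the linear scale, so a change of either kind within these bounds was not detectable in *Ring1* with these libraries.

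*Rnf2* supplied most of the catalytic message in every library. *Ring1* made up 4.68% (95% exact binomial interval 2.51% to 7.86%) and 4.81% (2.92% to 7.41%) of the *Ring1* and *Rnf2* counts in BcorΔE9-10, and 2.29% (0.626% to 5.75%) and 5.71% (3.16% to 9.40%) in BcorWT. The share in BcorWT replicate 1 was the lowest and rested on 4 *Ring1* counts, and its interval overlapped those of the other libraries. The difference in the mean log2 ratio was 0.40 beside a pooled SD of 0.69 (n = 2 per genotype, exact permutation p = 1). Without BcorWT replicate 1 the difference was -0.28, and without BcorWT replicate 2 it was 1.09.

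**Figure D2:**
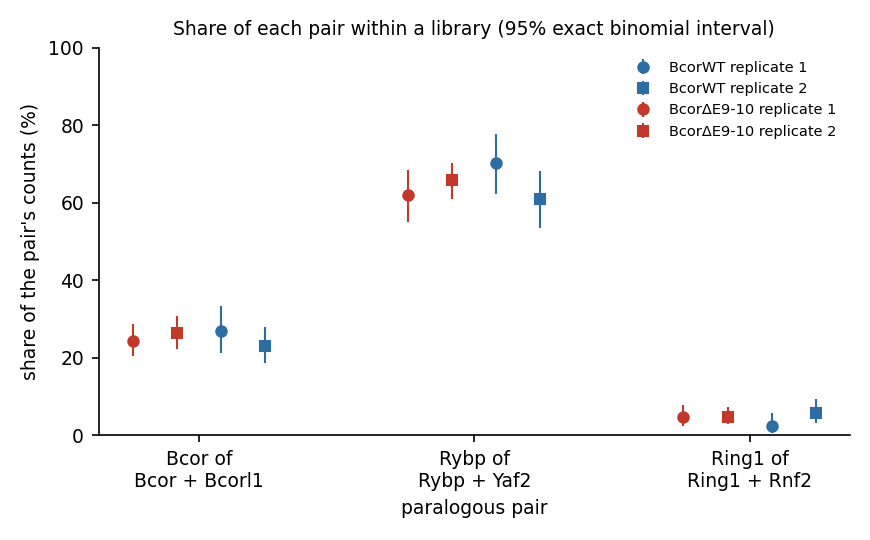
Share of each paralogous pair's counts taken by the named gene, in percent on the y axis, for *Bcor* with *Bcorl1*, *Rybp* with *Yaf2* and *Ring1* with *Rnf2*; each point is 1 library and each bar its 95% exact binomial interval for counting error. Red points are BcorΔE9-10 and blue points BcorWT, circles replicate 1 and squares replicate 2, and in each pair the colours interleave.

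The plot of paralogue shares places all 3 pairs side by side. *Bcor* was the minor member of its pair, *Rybp* the major member and *Ring1* a small fraction in all 4 libraries of both genotypes. Leaving out single libraries also turned the direction of the other differences in log2 ratio, which ranged from -0.12 to 0.18 for *Bcor* over *Bcorl1* and from -0.42 to 0.18 for *Rybp* over *Yaf2*.

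Usp7 is a deubiquitinase found in PRC1 complexes and also acts on many other proteins. *Usp7* (chr16:8689595-8792308) was the most abundant of the 9 messages, with 743 and 915 counts in BcorΔE9-10 and 422 and 486 in BcorWT. Its level of 137 and 149 CPM in BcorΔE9-10 was above the 123 and 91.5 CPM in BcorWT, without overlap. The log2 fold change was 0.42 with a standard error of 0.32 (95% interval -0.33 to 1.16, adjusted p = 0.945, edgeR). It ranged from 0.22 without BcorWT replicate 2 to 0.64 without BcorWT replicate 1. In the fits to all 4 libraries, 0 of the 9 genes had an unadjusted p under 0.05. Fits without a library leave 1 library in a genotype, and their p-values are not given for single genes.

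In total, 4 of the 9 genes (*Bcor*, *Bcorl1*, *Yaf2* and *Usp7*) were higher in both BcorΔE9-10 libraries than in both BcorWT libraries, and 0 were lower in both. Over all genes the shares were 16.8% and 17.1%. The list of non-overlapping genes depended on scaling. With DESeq2's size factors it gained *Skp1a*, giving 5 of 9 (17.0% of all genes). With total counts it held *Bcor*, *Yaf2*, *Rnf2*, *Skp1a* and *Usp7* (22.7% of all genes), and *Bcorl1* was no longer in it.

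**Figure D3:**
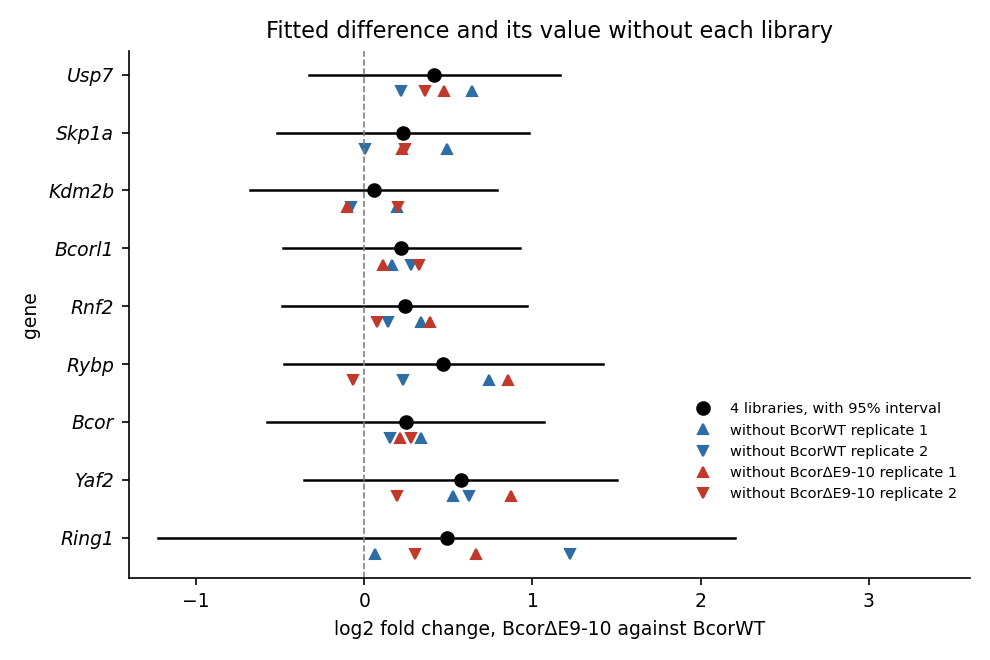
Log2 fold change of BcorΔE9-10 against BcorWT on the x axis for each gene on the y axis; black points and lines are the fit to 4 libraries with its 95% interval, and coloured triangles the value without a single library. Every interval crosses 0, and the triangles of *Kdm2b* and *Rybp* fall on both sides of it.

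The plot of fitted differences shows where a single library carried a value. *Rybp*, *Yaf2* and *Ring1* had the widest scatter of triangles, with ranges of -0.068 to 0.86, 0.19 to 0.87 and 0.061 to 1.22, whereas *Bcor* had a narrow one.

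Because Quant-seq yields about 1 fragment per transcript regardless of its length, levels of different genes can be set beside each other without division by length, though priming can differ from gene to gene. By mean CPM over the 4 libraries the order was *Usp7* (125), *Skp1a* (104), *Kdm2b* (58.1), *Bcorl1* (51.6), *Rnf2* (50.9), *Rybp* (30.1), *Bcor* (17.4), *Yaf2* (16.1) and *Ring1* (2.33). The ranges of neighbouring genes in this order were separate only between *Skp1a* and *Kdm2b*, *Rybp* and *Bcor*, and *Yaf2* and *Ring1*. The deubiquitinase and the adaptor shared with other ligases were thus the most abundant messages. Below them, the ranges of *Kdm2b*, *Bcorl1* and *Rnf2* overlapped, and the range of *Rnf2* also overlapped that of *Rybp*. *Bcor* itself was among the 3 least abundant, below its paralogue *Bcorl1* in 4 of 4 libraries.

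**Figure D4:**
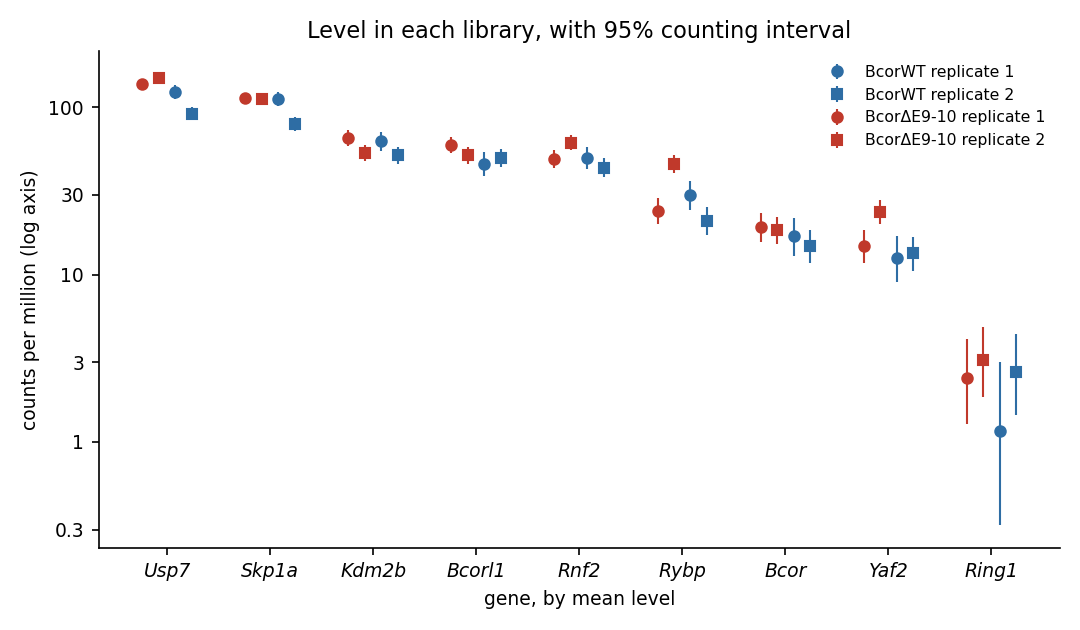
Level of each gene in each library in CPM on a log axis, ordered by mean level; bars are 95% exact Poisson intervals for counting error. Red points are BcorΔE9-10 and blue points BcorWT, circles replicate 1 and squares replicate 2, from *Usp7* at a mean of 125 CPM to *Ring1* at 2.33 CPM.

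The plot of levels sets counting error beside the spread between libraries. The counting intervals of the replicates did not overlap for *Usp7* and *Skp1a* in BcorWT or for *Rybp*, *Yaf2* and *Rnf2* in BcorΔE9-10. For *Bcor*, *Bcorl1* and *Ring1* the intervals of all 4 libraries overlapped.

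Genes with a profile most like that of *Bcor* were sought by Pearson's r on log2 CPM over the 4 libraries. The 3 highest were *Gm13196*, *Enox2* and *Mrpl27*, each with r above 0.99. With 4 points 137 genes reached such an r, so the likeness is a description of these libraries. *Enox2* was at 11.3 and 9.62 CPM in BcorΔE9-10 and 7.01 and 4.14 CPM in BcorWT, and *Mrpl27* at 11.3 and 10.4 CPM and 9.05 and 7.15 CPM. Both were chosen for this likeness, and so, like *Bcor*, were highest in BcorΔE9-10 replicate 1 and lowest in BcorWT replicate 2.

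The other genes of the pathway were examined as lists. All 20 listed subunits of other PRC1 complexes were measured, and at an unadjusted p under 0.05 there were 0 higher and 2 lower in BcorΔE9-10, against 4.42% of all genes in either direction. Neither passed adjustment. *Cbx2*, which encodes a chromodomain subunit of canonical PRC1 that reads a trimethylated lysine of histone H3, had 2 and 7 counts in BcorΔE9-10 and 9 and 19 in BcorWT (log2 fold change -1.99, standard error 0.84, unadjusted p of 0.0462 and adjusted p of 0.945, edgeR). *Cbx2* was past the unadjusted limit in some fits only. Its unadjusted p was 0.0629 in limma-voom, 0.0925 in DESeq2 and 0.0574 with the replicate block in edgeR. The *Cbx2* log2 fold change was -1.43 without BcorΔE9-10 replicate 1 and -2.99 without BcorΔE9-10 replicate 2. Without BcorWT replicates 1 and 2 it was -2.19 and -1.74. *L3mbtl2*, a subunit of PRC1.6, had 89 and 118 counts in BcorΔE9-10 and 81 and 314 in BcorWT (log2 fold change -1.22, standard error 0.46, unadjusted p of 0.0298 and adjusted p of 0.945, edgeR). The *L3mbtl2* value was set by BcorWT replicate 2, at 59.1 CPM against 16.4 to 23.7 CPM in the other libraries, and was -0.41 without it. Without BcorWT replicate 1, the *L3mbtl2* log2 fold change was -1.73. The median of this list was -0.14, with 9 of 20 above 0. It turned to 0.24, with 11 of 20 above 0, without BcorWT replicate 1, was -0.0099 without BcorΔE9-10 replicate 2, and was 0.0066 with limma-voom.

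PRC2, which methylates histone H3 and is often found at the same genes, had 11 of 11 subunits measured and 0 called at either limit by edgeR. Its median was 0.22 with 8 of 11 above 0, but -0.040 with 4 of 11 above 0 without BcorWT replicate 2, and 0.51 without BcorWT replicate 1. *Suz12*, a core subunit needed for its activity, had the highest value, at 169 and 174 CPM in BcorΔE9-10 and 149 and 62.1 CPM in BcorWT (log2 fold change 0.70, standard error 0.44, adjusted p = 0.945, edgeR). *Phf1*, an accessory subunit, had the lowest, at 7.58 and 20.7 CPM and at 14.6 and 65.5 CPM (log2 fold change -1.51, standard error 0.71, adjusted p = 0.945, edgeR). Both depended on BcorWT replicate 2. *Phf1* also moved with the BcorΔE9-10 libraries, to -0.96 without replicate 1 and -2.41 without replicate 2. *Phf1* had an unadjusted p of 0.0684 in edgeR, but of 0.0238 in DESeq2 and 0.00797 with the replicate block in edgeR, with adjusted p of 0.991 and 0.794. Without BcorWT replicate 2 *Suz12* was at 0.21 and *Phf1* at -0.040, and without BcorWT replicate 1 they were at 1.46 and -2.21.

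Enzymes that remove ubiquitin from H2A, or belong to complexes that do, had 6 of 7 genes measured and 0 called at either limit by edgeR, with a median of 0.14 and 4 of 6 above 0. *Mysm1* was the highest, with 93 and 129 counts in BcorΔE9-10 and 48 and 40 in BcorWT (log2 fold change 0.84, standard error 0.44), and *Usp21* the lowest (-0.46, standard error 0.38). Without BcorWT replicate 2 *Mysm1* was at 0.45 and the median of the list at 0.040. Without BcorWT replicate 1 *Mysm1* was at 1.34 and the median at 0.24. *Kdm2a*, the paralogue of *Kdm2b*, was at 80.6 and 98.9 CPM in BcorΔE9-10 and 91.1 and 72.1 CPM in BcorWT, an overlap with a log2 fold change of 0.14 that lay between -0.022 and 0.31 in fits without single libraries.

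The 7 partners of Skp1 in SCF ubiquitin ligases were all measured, with 0 called at either limit by edgeR, a median of 0.16 and 7 of 7 above 0. Without BcorWT replicate 1 the median of this list turned to -0.031, with 3 of 7 above 0, and without BcorWT replicate 2 it was 0.36. The highest was *Fbxo11*, an F-box protein, at 39.7 and 38.6 CPM in BcorΔE9-10 and 25.7 and 23.9 CPM in BcorWT (log2 fold change 0.66, standard error 0.31, adjusted p = 0.945, edgeR). Its groups were well separated and its value stayed near 0.66 in fits without single libraries, from 0.61 to 0.71. *Skp2* was the lowest at 0.033, and at -0.16 without BcorWT replicate 1.

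Bcl6 and Mllt3 (Af9) bind the part of Bcor that the deletion leaves in frame. *Bcl6* had 102 and 136 counts in BcorΔE9-10 and 45 and 177 in BcorWT, with a log2 fold change of -0.19 and a standard error of 0.47. The value turned to 0.64 without BcorWT replicate 2 and was -0.70 without BcorWT replicate 1. The BcorWT libraries lay on either side of both BcorΔE9-10 libraries. *Mllt3* had a log2 fold change of -0.072 with a standard error of 0.57, also with overlap, and lay between -0.57 and 0.62 in fits without single libraries.

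**Figure D5:**
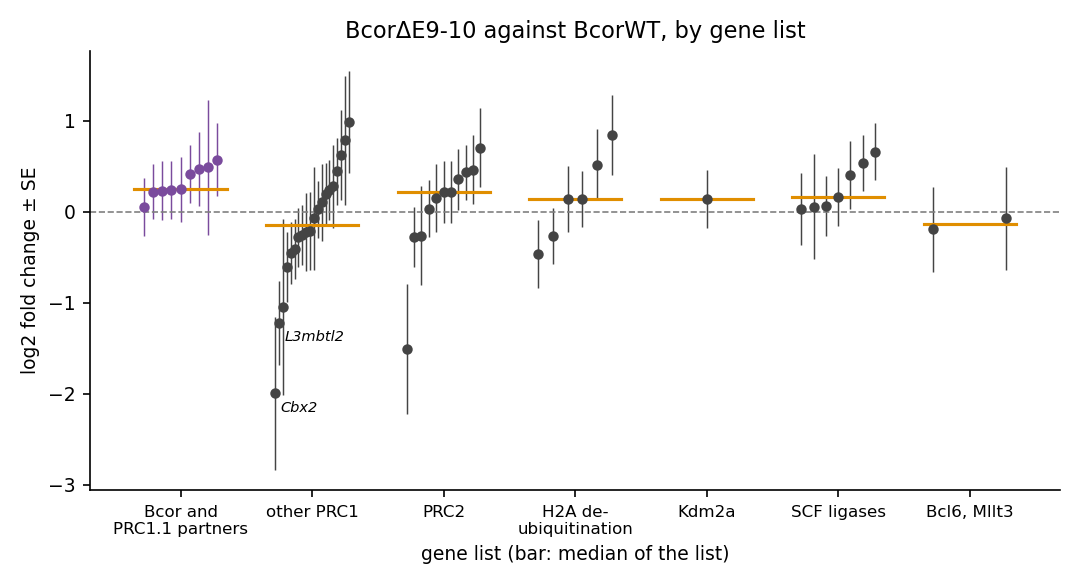
Log2 fold change of BcorΔE9-10 against BcorWT with its standard error on the y axis, for each gene of the lists along the x axis; orange bars are list medians. The 9 points of *Bcor* and its PRC1.1 partners, in purple, lie between 0.055 and 0.57, and the labelled genes *Cbx2* and *L3mbtl2* are those with an unadjusted p under 0.05.

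In the plot by gene list, the lowest values were those of *Cbx2* among the other PRC1 subunits and *Phf1* among the PRC2 subunits. The genes of PRC1.1 and the Skp1 partners, from 0.033 to 0.66, lay above 0 throughout in the fit to 4 libraries.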

How the data were processed

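Quant-seq libraries of 75-base reads were made by the authors from sorted KL cells. The submitters' processing notes name cutadapt 1.7, HISAT2, featureCounts (Subread) and the GRCm38 (mm10) build. The deposited table holds gene counts without normalisation. For BcorΔE9-10 replicate 2 and BcorWT replicate 1 the deposited values were taken to hold expected counts, because *Gm4430* alone is not whole there, and were rounded to whole numbers. No row without a gene name entered the fits. Every gene reached 2.08 CPM in its second-highest library, so genes of lower level are not in the table.

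Counts were fitted with edgeR 4.0.16 in R 4.3.3 (filterByExpr, which removed 0 genes; TMM scaling; quasi-likelihood F test; prior count of 0.125; Benjamini-Hochberg adjustment over 12067 genes). The 95% interval of a log2 fold change was taken from the F statistic. CPM were scaled by TMM factors, and log2 CPM for correlations used a prior count of 2. Paralogue ratios of counts were compared by an exact permutation test over libraries, and adding 0.5 to each count was an alternative. Exon positions and sequences came from GENCODE M21 and GRCm38, near copies of at least 75 bases and 95% identity from blastn 2.17.0, and figures from matplotlib 3.10.9 in Python 3.11.15.

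The genes and gene lists were chosen with earlier results of these data known. Named were all listed PRC1.1 genes, in each other list the genes with an unadjusted p under 0.05 or otherwise the highest and lowest log2 fold change, and the 3 genes most like *Bcor*. Markers, *Gm42418*, overlapping genes and the pseudogene of *Rybp* were named for their bearing on a value. Alternatives were DESeq2's size factors, a filter of 10 counts in each library or none, limma-voom (limma 3.58.1), DESeq2 1.42.0, a prior count of 2, the replicate number as a block and each library left out in turn. Total counts and leaving out *Gm42418* were added after the data were seen. Intervals of counts and shares cover counting error only. *Pcgf1* is not analysed here.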

Additional observations from a re-analysis of the deposited data

How the results depend on the processing

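The number of PRC1.1 genes at an adjusted p under 0.05 was 0 under each alternative that was run, and no alternative other than leaving out a library changed the direction of any of them. Leaving out BcorΔE9-10 replicate 1 gave *Kdm2b* -0.11 and raised the median of these genes to 0.39, BcorWT replicate 2 gave *Kdm2b* -0.079, and BcorΔE9-10 replicate 2 gave *Rybp* -0.068. Over the fits without a library, *Kdm2b* ranged from -0.11 to 0.20 and *Rybp* from -0.068 to 0.86, and the median ranged from 0.22 to 0.39. The count over all genes was 2, but 5 with at least 10 counts in every library (10424 genes, *Ring1* not among them), 4 with limma-voom and 43 with DESeq2. It ranged from 6 to 596 when a library was left out, with 6 and 34 without BcorΔE9-10 replicates 1 and 2 and 596 and 30 without BcorWT replicates 1 and 2. The cause was not tested. In those fits the lone library of a genotype was assumed to vary like the replicates of the other. Same-numbered libraries did not deviate together from the means of their genotypes (correlation of deviations across genes -0.0945). The replicate block, tried as an alternative, gave 14 genes. With 2 libraries per genotype, the intervals of these genes other than *Ring1* reached from between 0.625-fold and 0.797-fold up to between 1.73-fold and 2.84-fold. *Ring1*, at 4 to 19 counts, had the widest, from 0.428-fold to 4.61-fold. The parts of depth and of spread between libraries in that width were not tested.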
